A study of Mus musculus with 24 samples.

Results

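The Toll-like receptors (TLRs) measured in colonic myeloid cells, together with their co-receptor gene Cd14, were 10 genes: Tlr1, Tlr2, Tlr4, Tlr5, Tlr6, Tlr7, Tlr8, Tlr9, Tlr13 and Cd14. They were chosen by name, as the rows whose Ensembl identifier maps to one of these symbols, and all 10 were present among the 17301 genes of the expression table. Their RNA levels were compared across 8 groups of 3 RNA-seq libraries, 24 libraries in all. The study asked how the tumour environment alters myeloid cells of the colon, and the comparisons below ask how the level of each receptor gene differed between tumour and lamina propria (LP) and between the sorted populations.

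The 8 groups were 4 sorted populations from each of 2 tissues: F4/80hi MHCIIhi macrophages, F4/80hi MHCIIlow macrophages, Ly6Chi MHCII- monocytes and Ly6Ghi F4/80- CD11b+ neutrophils. LP cells came from the colon of mice of strain C57/BL, which the methods name C57BL/6J, and tumour cells from colon adenomas of Apc Min/+ mice, which carry 1 mutant copy of the tumour suppressor gene Apc in every cell and are on the same background. According to the methods, Apc Min/+ mice received dextran sodium sulphate (DSS) in the drinking water to speed adenoma growth, and they and the control C57BL/6J mice were killed at 3 to 4 months of age. The methods describe DSS for those control mice as well, at another concentration, whereas the labels call the LP tissue healthy, and this was not settled here. Each library held cells pooled from 13 to 15 mice, so the p-values below measure the spread between pools. The tissue was digested differently as well: LP after removal of the epithelium with EDTA, tumour with DNase I and another density gradient, so that tissue, genotype and digestion cannot be told apart. Because the libraries are bulk RNA, fewer cells of one kind in a sort and less RNA per cell cannot be told apart either.

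TLRs are receptors of the innate immune system that recognise conserved microbial molecules, and in the colon they read the products of the resident bacteria. The surface receptors are Tlr2, which pairs with Tlr1 or Tlr6 to bind bacterial lipopeptides, Tlr4, which with Ly96 (MD-2) binds lipopolysaccharide, and Tlr5, which binds flagellin. Tlr7, Tlr8, Tlr9 and Tlr13 sit in endosomes and read nucleic acids: single-stranded RNA, RNA breakdown products, unmethylated CpG DNA and bacterial ribosomal RNA, respectively. Cd14 is a lipid-anchored surface protein that hands lipopolysaccharide to Tlr4 and also serves other TLRs. Signals of these receptors run, among other routes, through the adaptor Myd88 to the transcription factor NF-kB.

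Levels are given in RPKM (reads relative to the length of the gene and the size of the library), a unit in which different genes can be compared, and differences as log2 RPKM of one group minus another, with the standard error (SE). A difference passed the test when its Benjamini-Hochberg adjusted p from limma, over 12878 genes, was under 0.05. Depth ran from 12838061 to 41718078 reads on genes per library. Libraries are named by the pool number in their labels and are always listed in this order: III, IV and V for LP MHCIIhi macrophages, monocytes and neutrophils; II, III and IV for LP MHCIIlow macrophages; I, V and VII for tumour macrophages; I, II and V for tumour monocytes and neutrophils. Macrophage and neutrophil markers set these populations apart from the other cells, whereas monocyte markers were also present in neutrophils. Summed RPKM of 9 macrophage genes ran from 3760.0 to 7459 in macrophage libraries and from 187 to 737 elsewhere, and that of 7 neutrophil genes was 11604 or more in neutrophils and 301 or less elsewhere. The 6 monocyte genes summed to 795 to 1158 RPKM in the monocytes of LP and 2491 to 3371 in those of tumour. In neutrophils they summed to 595 to 734 RPKM in LP and 819 to 1083 in tumour, the latter within the range of LP monocytes. They summed to 58 to 65.5 in LP MHCIIhi, 125 to 453 in LP MHCIIlow, 12.9 to 17.7 in tumour MHCIIhi and 13.1 to 21.3 in tumour MHCIIlow macrophages, so monocyte marker RNA was higher in every LP macrophage library than in every tumour macrophage library. In the same 4 groups and order the 7 neutrophil genes summed to 33.4 to 40.6, 23.4 to 35, 38.5 to 52.8 and 46 to 50.9 RPKM. Of these 7, 1 passed higher in tumour in MHCIIhi and 3 in MHCIIlow macrophages, with median log2 differences of 0.13 and 2.68 beside 0.00 and 0.06 over all genes, and Ly6g had 0 reads in the other 3 macrophage groups and 0 to 40 in tumour MHCIIlow macrophages. The 6 conventional dendritic cell genes summed to 51.3 to 73.5, 9.29 to 16.9, 5.05 to 14.7 and 3.49 to 5.41 RPKM in the macrophages, and to 92.2 to 187 in LP and 2.67 to 20.4 in tumour neutrophils. In monocytes they summed to 36.4 to 43.3 RPKM in LP and 9.12 to 28.4 in tumour. Of the 4 tested, 3 passed lower in tumour in MHCIIhi macrophages, 1 in MHCIIlow macrophages and 3 in neutrophils. The 6 epithelial genes summed to 8.80 to 40.9 RPKM in LP and 90.1 to 190 in tumour neutrophils, and overlapped between tissues in the other populations. The 6 fibroblast genes summed to 6.83 to 62 RPKM in LP libraries and to at most 1.57 in tumour libraries. The part of these markers in the tissue differences was not tested.

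Tlr1 (ENSMUSG00000044827.6, chr5:64924679-64933563, minus strand) and Tlr6 (ENSMUSG00000051498.4, chr5:64952031-64960097, minus strand) are neighbours, 18467 bases apart in GRCm38. Tlr8 (ENSMUSG00000040522.5, chrX:167242696-167264329) and Tlr7 (ENSMUSG00000044583.9, chrX:167304929-167330558) lie 40599 bases apart on the minus strand of the X chromosome, which also holds Tlr13 (ENSMUSG00000033777.3, chrX:106143204-106160493, plus strand). The others are Tlr2 (ENSMUSG00000027995.10, chr3:83836272-83841767, minus strand), Tlr4 (ENSMUSG00000039005.9, chr4:66827584-66930284, plus strand), Tlr5 (ENSMUSG00000079164.4, chr1:182954788-182976044, plus strand), Tlr9 (ENSMUSG00000045322.10, chr9:106222598-106226883, plus strand) and Cd14 (ENSMUSG00000051439.6). All 10 are protein coding genes with no exon shared with another gene. The gene lengths behind the RPKM, recovered from the deposited values, were 2652 bases for Tlr1, 2603 for Tlr6 and 1572 for Cd14, shorter than the annotation used here, in which their transcripts hold 3331, 3701 and 1730 different stretches of 51 bases. The effect of this on levels compared between genes was not tested. Tlr1 and Tlr6 are close copies: 13.4% of the 51-base stretches of Tlr1 transcripts and 12.1% of those of Tlr6 occur in the other gene, and a read within such a stretch does not tell the genes apart on its own. How many read pairs this affected was not measured. Over all other genes, Tlr6 included, 15.2% of the Tlr1 stretches were shared. Of the other 8 members, Tlr4 shared 0.198% of its stretches with another gene, Gm37744, and the rest shared none.

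RefSeq promoter windows (GRCm38.p6, 250 bases before to 50 after the start site) were matched for 7 of the 10 members, with 9 windows between them, and not for Tlr4, Tlr7 and Cd14. The windows of 3 genes are shown, since the results below turn on them: Tlr2, whose RNA was higher in tumour in all 4 populations, Tlr9, whose RNA was nearly absent from tumour neutrophils, and Tlr13, whose RNA separated neutrophils from the other cells. Capitals mark matches on either strand to the letters of 4 motifs of factors active in myeloid cells: GAGGAA (PU.1 core), GGG and CC with any 5 bases between them (NF-kB), TGANTCA (AP-1), and GAAA followed by any 2 bases and a second GAAA (IRF).
Tlr2: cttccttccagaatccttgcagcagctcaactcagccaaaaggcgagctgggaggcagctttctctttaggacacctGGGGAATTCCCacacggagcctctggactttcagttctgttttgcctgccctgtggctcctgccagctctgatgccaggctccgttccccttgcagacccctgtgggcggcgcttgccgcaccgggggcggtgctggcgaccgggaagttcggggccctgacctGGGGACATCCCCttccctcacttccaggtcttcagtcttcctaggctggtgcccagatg
Tlr9: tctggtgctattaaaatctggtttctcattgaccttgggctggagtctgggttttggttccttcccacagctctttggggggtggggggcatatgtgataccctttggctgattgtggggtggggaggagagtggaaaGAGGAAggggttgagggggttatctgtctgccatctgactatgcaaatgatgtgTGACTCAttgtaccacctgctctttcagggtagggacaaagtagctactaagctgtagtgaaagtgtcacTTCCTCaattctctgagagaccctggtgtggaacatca
Tlr13: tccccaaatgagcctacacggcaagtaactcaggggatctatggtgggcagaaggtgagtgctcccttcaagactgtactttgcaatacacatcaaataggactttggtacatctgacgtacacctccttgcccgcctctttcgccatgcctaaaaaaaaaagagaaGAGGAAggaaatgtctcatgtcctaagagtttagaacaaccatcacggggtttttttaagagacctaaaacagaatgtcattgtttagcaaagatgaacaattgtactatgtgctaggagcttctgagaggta
These lie at chr3:83841559-83841858 (minus strand), chr9:106222348-106222647 (plus strand) and chrX:106143025-106143324 (plus strand), and are printed 5′ to 3′ along the gene. The Tlr2 window held the NF-kB letters in overlapping matches that form 2 blocks, which begin 173 and 9 bases before the start site. The Tlr9 window held the PU.1 letters at 112 bases before the start site and again, on the other strand, 13 bases after it, and the AP-1 letters at 58 bases before it. The Tlr13 window held the PU.1 letters 83 bases before the start site. Of 32851 RefSeq windows of this length, 28.3% held the PU.1 letters, 50.8% the NF-kB letters, 7.81% the AP-1 letters and 3.44% the IRF letters; of the 9 windows of these genes, 4, 3, 1 and 1 did. These matches are a description of the letters and were not tied to any binding.

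Cd14 was by far the most abundant of the 10 RNAs in every group, and Tlr2 was the most abundant of the 9 receptors in every group, with no overlap between the libraries of Tlr2 and of the next of them. Cd14 ranked 2 to 3 among all 17301 genes in neutrophil libraries, 4 to 5 in tumour monocytes, 5 to 6 in LP monocytes and 9 to 28 in macrophages. Behind Tlr2, the order of these 9 receptors differed by cell; Tlr12, which is not among them and is given further on, lay above Tlr1 and Tlr13 in tumour MHCIIhi macrophages. In LP neutrophils Tlr2 was followed by Tlr6, Tlr13 and Tlr4, in monocytes of both tissues by Tlr13 and Tlr4, and in MHCIIhi macrophages of both tissues by Tlr1 and Tlr13. Tlr9 had the lowest mean of the 9 receptors in neutrophils of both tissues and in tumour monocytes, and its highest level in LP MHCIIhi macrophages, at 23, 25.7 and 19.7 RPKM.

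**Figure D1:**
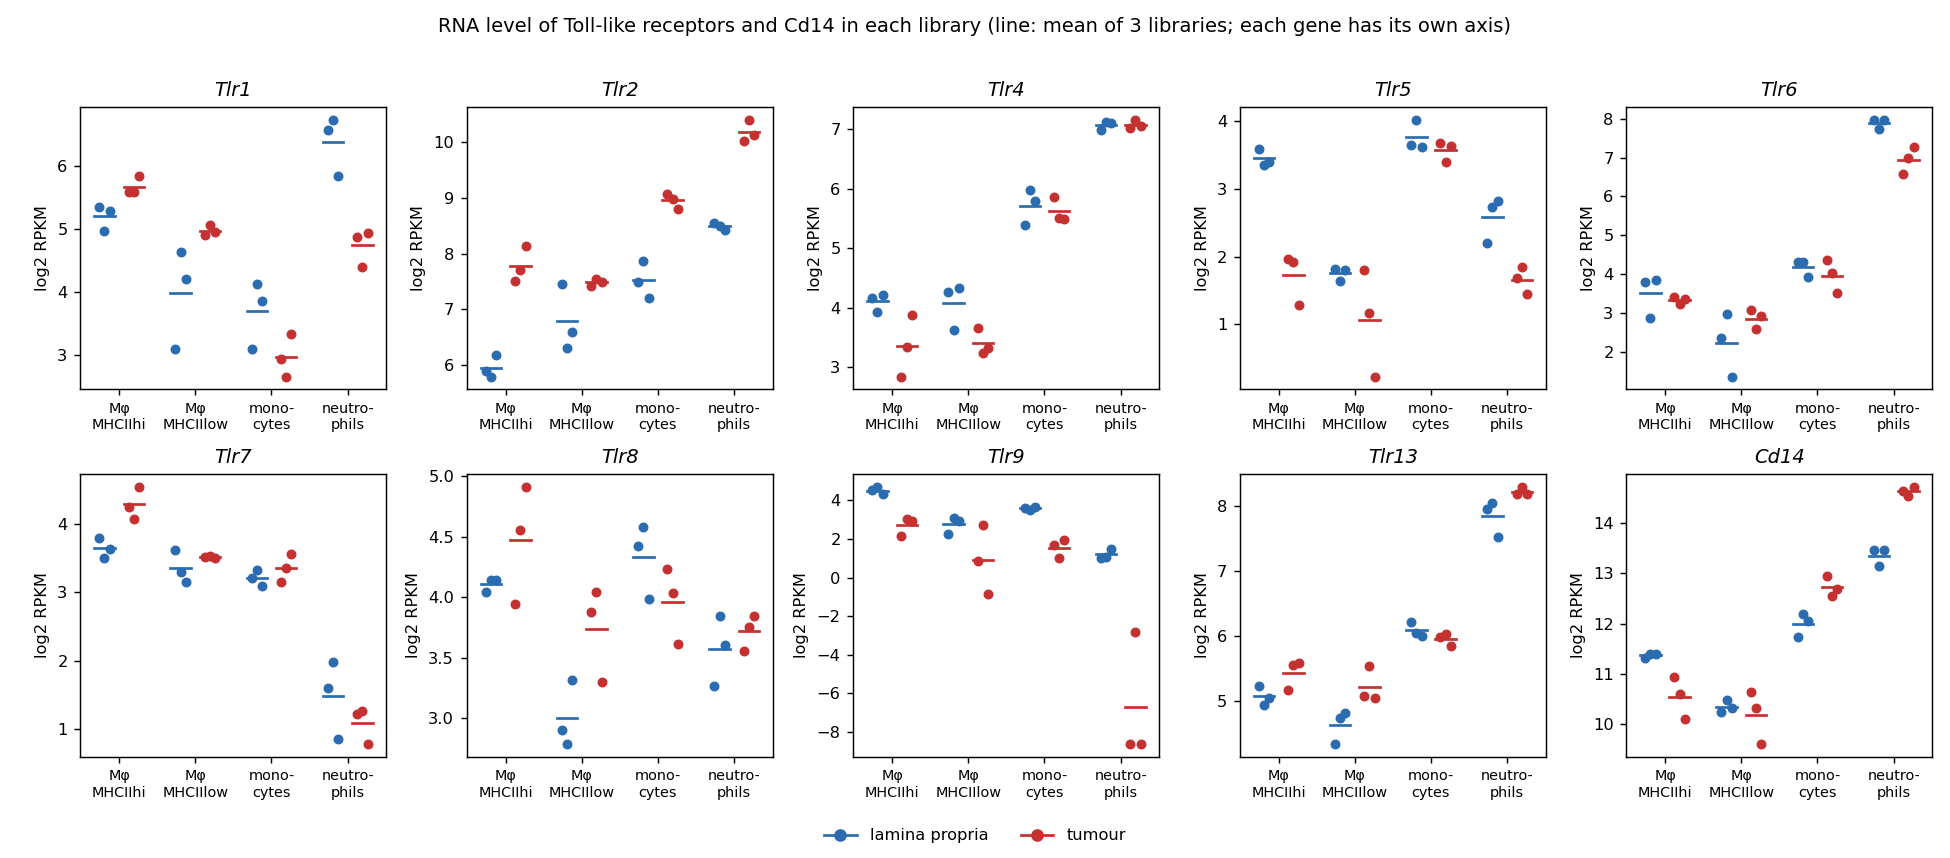
Level of each of the 10 genes in every library (log2 RPKM, vertical axis) by sorted population (horizontal axis), with LP libraries in blue, tumour libraries in red and a line at the mean of each group of 3. Tlr2 lies higher in tumour in 4 of 4 populations by group mean. Within each tissue, neutrophils hold the highest levels of Tlr2, Tlr4, Tlr6, Tlr13 and Cd14. The tumour neutrophil libraries of Tlr9 held 0, 4 and 0 reads.

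Between tumour and LP, Tlr2 was higher in tumour in all 4 populations by the test, and the other calls were as follows. In MHCIIhi macrophages, 4 of 10 members passed the test, 1 higher and 3 lower in tumour, beside 19.5% of all genes tested (8.01% higher, 11.5% lower). In MHCIIlow macrophages 5 passed, 4 higher and 1 lower, beside 23.3% (11.5% higher, 11.8% lower). In monocytes 1 passed, higher, beside 9.29% (4.86% higher), which is near the background share. In neutrophils 6 passed, 2 higher and 4 lower, beside 32.2% (13.1% higher, 19% lower). The 3 tumour and the 3 LP libraries did not overlap for 7 members in MHCIIhi macrophages (43% of all genes tested), 2 in MHCIIlow macrophages (42.1%), 3 in monocytes (31.4%) and 7 in neutrophils (40.1%). In MHCIIlow macrophages 0 of the 5 passed when the spread was estimated from the 6 libraries compared alone, and 2 when libraries were centred on their medians. Leaving out one library gave counts of 1 without LP library II, 3 without LP library IV, 3 without tumour library I (Tlr4, Tlr13 and, newly, Tlr5), 0 without tumour library V and 2 without tumour library VII. In MHCIIhi macrophages the count fell from 4 to 2 without LP library III or V. In neutrophils it fell from 6 to 3 with quantile normalization, where Tlr5, Tlr6 and Cd14 did not pass. In monocytes it was 3 with log2(RPKM + 1), log2(RPKM + 0.1), weights per library or voom and 2 with the libraries compared alone.

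**Figure D2:**
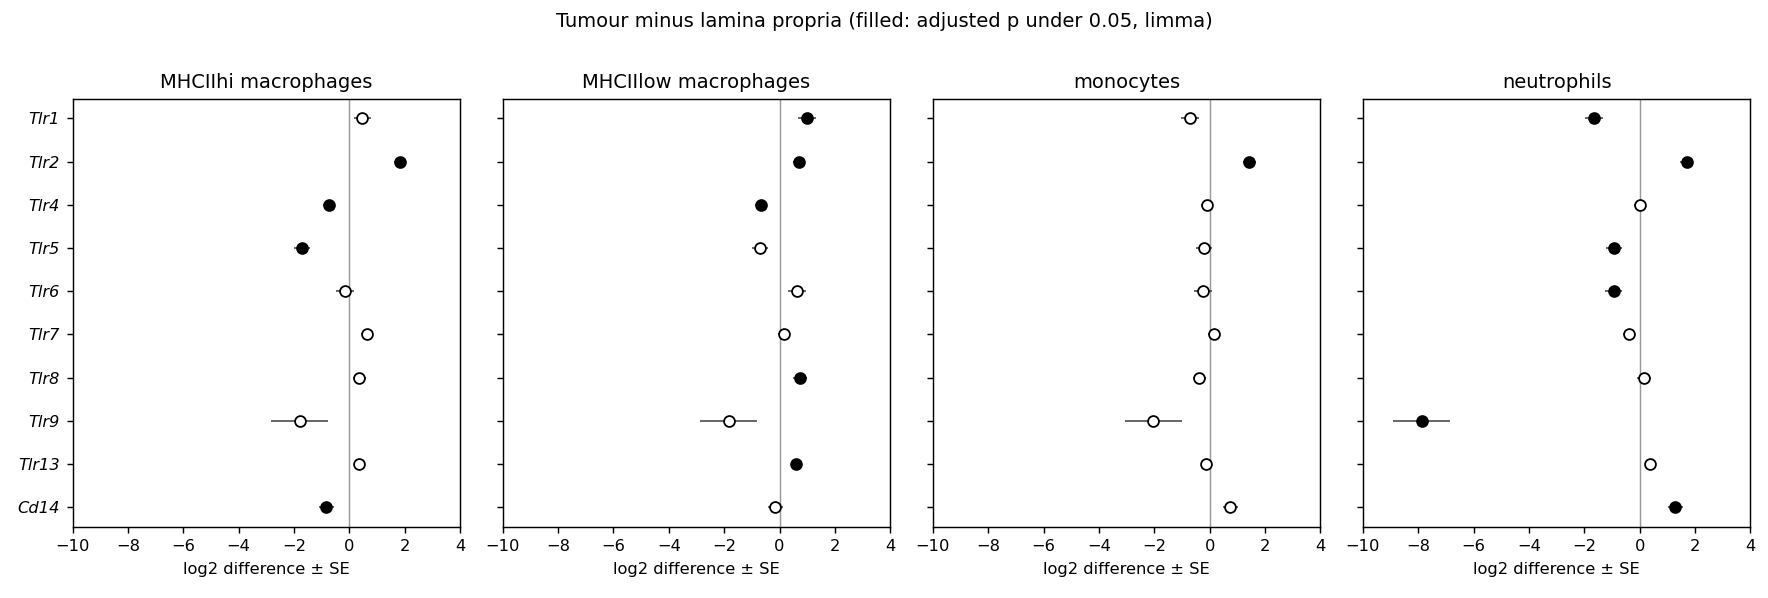
Difference of tumour from LP for each of the 10 genes (log2 difference ± SE, horizontal axis) in the 4 sorted populations, filled where the adjusted p was under 0.05. Tlr2 is filled on the tumour side in 4 of 4 populations, Tlr5 lies on the LP side in 4 of 4 and is filled in MHCIIhi macrophages and neutrophils, and Cd14 is filled on the LP side in MHCIIhi macrophages and on the tumour side in neutrophils.

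Tlr2, the lipopeptide receptor, was the only member that was higher in tumour in all 4 populations by the test. In MHCIIhi macrophages its level was 59.4, 55.5 and 72.4 RPKM in LP and 182, 209.9 and 281 in tumour. In monocytes it was 180.0, 234 and 148 RPKM in LP and 539, 509 and 448 in tumour. In neutrophils it was 378, 363 and 344 RPKM in LP and 1048, 1360 and 1117 in tumour. In these 3 populations each tumour library lay above each LP library. The log2 difference was 1.83 (SE 0.23, adjusted p = 9.1e-06) in MHCIIhi macrophages, a 3.55-fold higher level. It was 1.44 (SE 0.23, adjusted p = 0.000431) or 2.7-fold in monocytes. In neutrophils it was 1.69 (SE 0.23, adjusted p = 1.55e-05) or 3.23-fold. These 3 differences passed under each of the 11 other settings that could be fitted and without any one library. In MHCIIlow macrophages the levels overlapped, at 177, 78.8 and 96.2 RPKM in LP and 172, 187 and 181 in tumour, because LP library II lay within the tumour range. The log2 difference there was 0.71 (SE 0.23, adjusted p = 0.03) or 1.63-fold. It no longer passed without LP MHCIIlow library III (0.46) or IV (0.61) or tumour MHCIIlow library I (0.74), V (0.68) or VII (0.70), with adjusted p = 0.0526 to 0.178, nor with libraries centred on their medians (0.64, adjusted p = 0.0635). LP MHCIIlow library II also held the highest summed level of monocyte markers among the macrophage libraries, 453 RPKM, nearly all of it F13a1.

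Across the 8 groups, Tlr2 was ordered tumour neutrophils (10.19 ± 0.20 log2 RPKM, SD), tumour monocytes (8.96 ± 0.14), LP neutrophils (8.50 ± 0.07), tumour MHCIIhi macrophages (7.78 ± 0.32), LP monocytes (7.52 ± 0.33), tumour MHCIIlow macrophages (7.49 ± 0.06), LP MHCIIlow macrophages (6.78 ± 0.61) and LP MHCIIhi macrophages (5.95 ± 0.20). Each of the first 3 groups lay apart from the next in the order, and so did LP MHCIIhi macrophages at the low end. The 4 groups between them overlapped with their neighbours in the order.

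Tlr1, the partner that gives Tlr2 its preference for triacylated lipopeptides, was highest in LP neutrophils and fell there in tumour. In neutrophils it measured 94.9, 106 and 57.5 RPKM in LP and 29.4, 21.1 and 30.6 in tumour. In monocytes it measured 8.58, 17.4 and 14.4 RPKM in LP and 7.69, 6.31 and 10.0 in tumour. The neutrophil groups did not overlap, whereas the monocyte groups did. The log2 difference in neutrophils was -1.65 (SE 0.32, adjusted p = 0.000533), a level 3.13-fold lower, and in monocytes it was -0.72 (SE 0.32, adjusted p = 0.182). In MHCIIhi macrophages Tlr1 measured 40.6, 31.3 and 39.1 RPKM in LP and 47.8, 47.9 and 57.4 in tumour, without overlap but below the threshold of the test (0.47 (SE 0.32, adjusted p = 0.352)). In MHCIIlow macrophages it measured 8.59, 24.7 and 18.5 RPKM in LP and 29.9, 33.3 and 30.9 in tumour. Each tumour library there lay above each LP library, and the log2 difference was 0.99 (SE 0.32, adjusted p = 0.028) or 1.98-fold. That difference no longer passed without LP MHCIIlow library II (0.55) or tumour MHCIIlow library I (1.02), V (0.94) or VII (1.0), with adjusted p = 0.0531 to 0.206; library II was the lowest of its group.

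Tlr6, the partner for diacylated lipopeptides, was a receptor of neutrophils in these data. It measured 252, 213 and 249 RPKM in LP neutrophils and 94.7, 128 and 154 in tumour neutrophils, with no overlap. In the other 6 groups it ran from 2.57 to 20.6 RPKM. The tumour level in neutrophils was 1.93-fold lower, a log2 difference of -0.95 (SE 0.32, adjusted p = 0.0286). It no longer passed without LP neutrophil library III (-0.90) or V (-0.91) or tumour neutrophil library I (-0.76) or II (-0.97), with adjusted p = 0.0534 to 0.117, nor with quantile normalization (-0.96), libraries centred on their medians (-0.70) or weights per library (-1.0). In MHCIIhi macrophages the difference was -0.17 ± 0.32, in MHCIIlow macrophages 0.63 ± 0.32 and in monocytes -0.23 ± 0.32 (SE), none of which passed. Without LP MHCIIlow library III the MHCIIlow difference was 1.00 and passed (adjusted p = 0.0276).

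Since Tlr1 and Tlr6 compete for the same partner, their ratio was also taken within each library. Tlr6 minus Tlr1 was -1.70 ± 0.35 log2 units (SD, n = 3) in LP MHCIIhi macrophages and -2.34 ± 0.17 in those of tumour. It was -1.75 ± 1.06 in LP MHCIIlow macrophages and -2.11 ± 0.33 in those of tumour. Macrophages of both tissues thus held more Tlr1 than Tlr6. In monocytes the ratio was 0.50 ± 0.63 in LP and 0.99 ± 0.70 in tumour, and in neutrophils 1.51 ± 0.56 and 2.21 ± 0.47, so there the mean lay on the side of Tlr6. Tlr2 minus Tlr1 was 2.12 ± 0.42 in LP neutrophils and 5.45 ± 0.49 in those of tumour, where Tlr2 was higher and Tlr1 lower. Tlr1 and Tlr6 share stretches of sequence, and the effect of this on the ratios was not measured.

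As a share of the summed RPKM of the 9 receptors, Tlr2 made up 27.6 ± 2.65% (SD, n = 3) in LP MHCIIhi macrophages and 56.9 ± 1.95% in those of tumour. In MHCIIlow macrophages the share was 53.9 ± 12.9% in LP and 60.6 ± 2.56% in tumour. In monocytes it was 46.8 ± 4% and 73.8 ± 0.818%, and in neutrophils 33.6 ± 0.961% and 65.8 ± 2.34%. Tlr2 therefore held 55.7% or more of the RNA of these 9 receptors in each tumour library; Tlr12, which reached 73 to 96.3 RPKM in tumour MHCIIhi macrophages, is not part of the sum. The endosomal receptors Tlr7, Tlr8, Tlr9 and Tlr13 together made up 38.4 ± 3.44% in LP MHCIIhi macrophages, the highest mean of the 8 groups, and 13.5 ± 0.573% in tumour monocytes, the lowest. The summed level of the 9 receptors was highest in neutrophils, at means of 1077 RPKM in LP and 1781 in tumour, and lowest in LP macrophages, at 226 in MHCIIhi and 211 in MHCIIlow. These sums rest on scaled library sizes, which were 0.63 to 0.682 times the reads in LP and 0.466 to 0.483 in tumour neutrophils. In the other groups the sizes were 0.981 times the reads or more, and the effect on the sums was not tested. Shares of one total are not independent, as a rise of Tlr2 lowers the share of every other receptor.

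**Figure D3:**
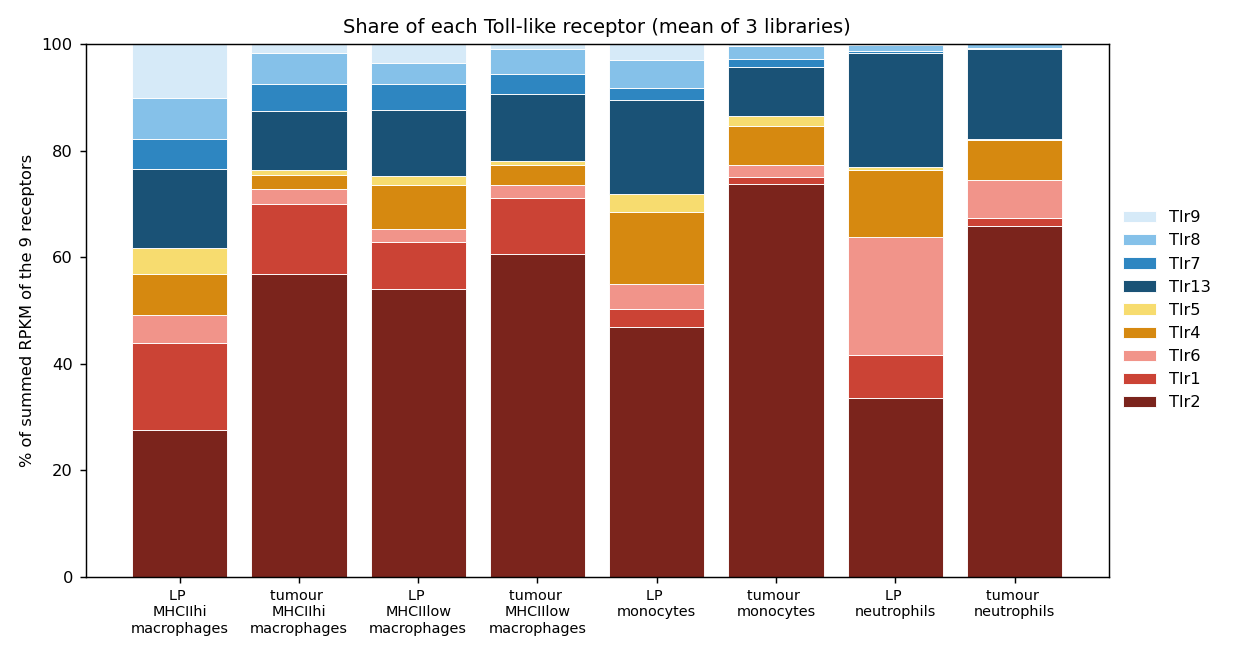
Share of each of the 9 receptors in their summed RPKM (percent, vertical axis) in the 8 groups, as stacked bars of the mean of 3 libraries. Tlr2 takes 27.6% in LP MHCIIhi macrophages and 73.8% in tumour monocytes. Tlr6 is widest in the bar of LP neutrophils, at 22.2%, and takes 7.05% in tumour neutrophils.

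Cd14 and Tlr4, which act on the same ligand, were both lower in MHCIIhi macrophages of tumour by the test. In neutrophils Cd14 was higher in tumour by the test and Tlr4 did not pass, and the difference between both genes was not tested. In neutrophils Cd14 measured 11322, 9070 and 11264 RPKM in LP and 25790, 23803 and 27137 in tumour. In monocytes it measured 3390, 4675 and 4226 RPKM in LP and 7952, 5992 and 6617 in tumour. Both populations held more Cd14 in each tumour library than in any LP library. The log2 difference was 1.28 (SE 0.27, adjusted p = 0.001) or 2.43-fold in neutrophils, and 0.75 (SE 0.27, adjusted p = 0.0868) or 1.68-fold in monocytes, which did not pass. In MHCIIhi macrophages the direction was the opposite, with 2549, 2673 and 2677 RPKM in LP and 1940, 1534 and 1096 in tumour. Each tumour library lay below each LP library, and the log2 difference was -0.83 (SE 0.27, adjusted p = 0.0323), a level 1.78-fold lower. It no longer passed without LP MHCIIhi library III (-0.85), IV (-0.82) or V (-0.82) or tumour MHCIIhi library V (-0.85) or VII (-0.61), with adjusted p = 0.0609 to 0.163. In MHCIIlow macrophages Cd14 measured 1198, 1417 and 1273 RPKM in LP and 1587, 1273 and 772 in tumour, and the groups overlapped (-0.16 (SE 0.27, adjusted p = 0.74)). In neutrophils quantile normalization set the tissue difference of Cd14 to 0.00, since this method gives genes of the same rank the same value and Cd14 ranked 2 to 3 in neutrophils of both tissues. In monocytes the difference passed in 4 of 11 other settings.

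Tlr4 in neutrophils measured 127, 139.5 and 137 RPKM in LP and 130.2, 143 and 132 in tumour, a log2 difference of 0.01 (SE 0.22, adjusted p = 0.999). In monocytes it measured 41.8, 63.1 and 55.2 RPKM in LP and 58.2, 45.5 and 45.3 in tumour, a difference of -0.09 (SE 0.22, adjusted p = 0.865). The groups overlapped in both populations. In macrophages Tlr4 was lower in tumour. MHCIIhi macrophages held 18, 15.3 and 18.6 RPKM in LP and 7.2, 10.1 and 14.8 in tumour, without overlap, and the level was 1.68-fold lower (-0.75 (SE 0.22, adjusted p = 0.0196)). MHCIIlow macrophages held 19.3, 12.4 and 20.1 RPKM in LP and 12.6, 9.49 and 10.0 in tumour, where LP library III lay within the tumour range, and the level was 1.59-fold lower (-0.67 (SE 0.22, adjusted p = 0.0322)). In MHCIIhi macrophages the difference no longer passed without LP MHCIIhi library III (-0.72) or V (-0.69) or tumour MHCIIhi library I (-0.49), with adjusted p = 0.0634 to 0.132, and in MHCIIlow macrophages without LP MHCIIlow library II (-0.57) or IV (-0.54) or tumour MHCIIlow library V (-0.59) or VII (-0.63), with adjusted p = 0.093 to 0.137. With the library size taken as the plain sum of reads, the MHCIIhi difference was -0.63 with adjusted p = 0.0554. With the spread estimated from the 6 libraries compared alone, the adjusted p in MHCIIhi macrophages was 0.114 for Tlr4 and 0.0903 for Cd14. Tlr2 minus Tlr4 within a library was 1.85 ± 0.12 log2 units (SD) in LP MHCIIhi macrophages and 4.43 ± 0.21 in those of tumour.

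Tlr5, the flagellin receptor, was highest in monocytes and LP MHCIIhi macrophages. The LP MHCIIhi libraries overlapped with those of tumour monocytes and lay below those of LP monocytes. MHCIIhi macrophages held 12.1, 10.2 and 10.6 RPKM in LP and 3.92, 3.78 and 2.45 in tumour. Each tumour library lay below each LP library, and the level was 3.31-fold lower, a log2 difference of -1.73 (SE 0.29, adjusted p = 0.000235) that passed in all 11 other settings and without any one library. Neutrophils held 4.61, 6.65 and 7.06 RPKM in LP and 3.21, 3.62 and 2.72 in tumour, again without overlap, and the level was 1.9-fold lower (-0.92 (SE 0.29, adjusted p = 0.0196)). This difference no longer passed without LP neutrophil library IV (-0.85) or V (-0.81) or tumour neutrophil library V (-0.82), with adjusted p = 0.0602 to 0.0738, nor with quantile normalization (-0.60), centred libraries (-0.68), weights per library (-0.82) or voom (-0.89). MHCIIlow macrophages held 3.53, 3.12 and 3.51 RPKM in LP and 3.51, 2.25 and 1.17 in tumour, a difference of -0.69 (SE 0.29, adjusted p = 0.0972) that passed without tumour MHCIIlow library I (-1.06, adjusted p = 0.00859). Monocytes held 12.5, 16.3 and 12.3 RPKM in LP and 12.8, 10.6 and 12.4 in tumour, a difference of -0.19 (SE 0.29, adjusted p = 0.773). In both populations the tissues overlapped.

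Tlr9, the receptor for CpG DNA, was nearly absent from tumour neutrophils. In neutrophils the LP libraries held 170, 99 and 206 reads, or 2.05, 2.12 and 2.76 RPKM, and the tumour libraries held 0, 4 and 0 reads. Per library size, the summed reads of LP were 57.1 times those of tumour, with an exact 95% interval of 22.2 to 211 that covers counting error only. The fitted log2 difference, -7.87 (SE 1.03, adjusted p = 1.1e-05), depends on the 0.25 reads that the authors added before taking logs. Under log2(RPKM + 1) it was -1.65 with adjusted p = 0.00148, and it passed in all 11 other settings. In the other populations the tumour levels lay below those of LP on average but the test was not passed. MHCIIhi macrophages held 23, 25.7 and 19.7 RPKM in LP and 4.42, 8.21 and 7.7 in tumour. Monocytes held 12.2, 11.3 and 12.6 RPKM in LP and 3.23, 2.04 and 3.82 in tumour. Neither population overlapped between tissues. MHCIIlow macrophages held 4.71, 8.57 and 7.58 RPKM in LP and 1.82, 6.69 and 0.557 in tumour, where library V lay within the LP range and the other two libraries below it.

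The log2 difference of Tlr9 was -1.80 (SE 1.03, adjusted p = 0.258) in MHCIIhi macrophages, a level 3.47-fold lower. It was -2.04 (SE 1.03, adjusted p = 0.256) in monocytes, 4.1-fold lower. It was -1.83 (SE 1.03, adjusted p = 0.225) in MHCIIlow macrophages. None of these passed, and the SE of 1.03 is shared by all 8 groups, the tumour neutrophil libraries with 0, 4 and 0 reads among them. With the spread estimated from the 6 libraries compared alone, the adjusted p was 0.0111 in MHCIIhi macrophages, 0.0136 in monocytes and 0.22 in MHCIIlow macrophages. On log2(RPKM + 1) it was 0.00204, 0.00357 and 0.0112, with differences of -1.65, -1.72 and -1.26. B cells and plasmacytoid dendritic cells are known for high Tlr9. In MHCIIhi macrophages, MHCIIlow macrophages, monocytes and neutrophils, in this order, the 5 B and plasma cell genes in the table summed to 14.9 to 26.3, 11 to 227, 156 to 571 and 356 to 1288 RPKM in LP and to 6.58 to 15.1, 6.33 to 68.3, 0.182 to 4.67 and 0.65 to 19.8 in tumour. In LP monocytes and neutrophils nearly all of this sum was Jchain, a gene of plasma cells. The 5 plasmacytoid genes summed, in the same order, to 37 to 45, 48.5 to 66.6, 17.2 to 27 and 6.92 to 8.14 RPKM in LP and to 41.1 to 64.4, 62.2 to 67.2, 16 to 25.2 and 5.27 to 8.87 in tumour. The part of these cells in the tissue differences of Tlr9 was not tested.

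Tlr7, the receptor for single-stranded RNA, was highest in tumour MHCIIhi macrophages, at 18.9, 16.8 and 23.1 RPKM against 13.8, 11.4 and 12.3 in LP. The groups did not overlap, and the log2 difference of 0.64 (SE 0.22, adjusted p = 0.0502) lay at the threshold; it passed in 8 of 11 other settings. In neutrophils Tlr7 was low, at 3.04, 3.94 and 1.82 RPKM in LP and 2.34, 2.41 and 1.73 in tumour. In the remaining groups it ran from 8.49 to 12.3 RPKM, and its tissue differences were 0.16 ± 0.22 in MHCIIlow macrophages, 0.15 ± 0.22 in monocytes and -0.39 ± 0.22 in neutrophils (SE). The neutrophil difference passed with summed reads as library size (-0.86, adjusted p = 0.00714) and without LP neutrophil library V (-0.70, adjusted p = 0.0133). Tlr8 varied least, from 6.89 to 30.1 RPKM over all 24 libraries, and no group stood apart from its neighbour in the order of levels. In MHCIIlow macrophages it measured 7.48, 6.89 and 9.96 RPKM in LP and 14.7, 16.5 and 9.85 in tumour, overlapping, with a log2 difference of 0.74 (SE 0.24, adjusted p = 0.0334) or 1.67-fold. That difference no longer passed without LP MHCIIlow library II (0.69) or III (0.63) or tumour MHCIIlow library I (0.67) or V (0.59), with adjusted p = 0.0959 to 0.154. In the other populations the Tlr8 difference was 0.36 ± 0.24 in MHCIIhi macrophages, -0.37 ± 0.24 in monocytes and 0.15 ± 0.24 in neutrophils (SE), and did not pass.

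Tlr13, the receptor for bacterial ribosomal RNA, was the most abundant of the 4 endosomal receptors among the members in each of the 8 groups. It measured 249, 265 and 185 RPKM in LP neutrophils and 292, 314 and 292 in tumour neutrophils, 74.8, 66.2 and 64.3 and 63.4, 65.3 and 57.6 in monocytes, and 37.8, 30.6 and 33.1 and 36.1, 46.9 and 48 in MHCIIhi macrophages. The tissues overlapped in monocytes and MHCIIhi macrophages and not in neutrophils, where each tumour library was the higher. None of these passed, with differences of 0.38 ± 0.16, -0.14 ± 0.16 and 0.36 ± 0.16 (SE). With centred libraries the neutrophil difference passed (0.62, adjusted p = 0.00811), while with summed reads it was -0.09. In MHCIIhi macrophages it passed with quantile normalization (0.52, adjusted p = 0.0488) and weights per library (0.39, adjusted p = 0.0304). In MHCIIlow macrophages it measured 20.3, 26.7 and 28.2 RPKM in LP and 33.8, 46.5 and 32.9 in tumour, without overlap, a log2 difference of 0.59 (SE 0.16, adjusted p = 0.0117) or 1.5-fold. It no longer passed without LP MHCIIlow library II (0.44) or tumour MHCIIlow library V (0.43), with adjusted p = 0.0787 to 0.0899. Within a library, Tlr13 exceeded Tlr9 by 0.57 ± 0.28 log2 units (SD) in LP MHCIIhi macrophages, where both receptors stood closest, and by 6.65 ± 0.51 in LP neutrophils.

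In LP, Tlr1, Tlr5, Tlr6, Tlr8 and Cd14 were lower in MHCIIlow than in MHCIIhi macrophages and Tlr2 was higher, by the test, while the summed level of the 9 receptors had means of 226 RPKM in MHCIIhi and 211 in MHCIIlow macrophages. Thus 6 of 10 members passed between MHCIIlow and MHCIIhi macrophages, 1 higher and 5 lower in MHCIIlow, beside 7.7% of all genes tested (2.13% higher, 5.57% lower), and 7 did not overlap (32.5%). Tlr5 was 3.24-fold lower in MHCIIlow (-1.69 (SE 0.29, adjusted p = 0.000848)). Tlr8 was 2.15-fold lower (-1.11 (SE 0.24, adjusted p = 0.00763)). Cd14 was 2.04-fold lower (-1.03 (SE 0.27, adjusted p = 0.0206)), and both this gene and the preceding receptors had no overlap. Tlr6 was 2.42-fold lower with 1 MHCIIlow library within the MHCIIhi range (-1.28 (SE 0.32, adjusted p = 0.0175)). Tlr1 was 2.33-fold lower (-1.22 (SE 0.32, adjusted p = 0.0209)). Tlr2 alone went the other way, 1.78-fold higher (0.83 (SE 0.23, adjusted p = 0.0297)). Tlr9 was 3.37-fold lower without overlap but with a log2 difference of -1.75 (SE 1.03, adjusted p = 0.376), and its adjusted p was 0.00513 on log2(RPKM + 1).

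Leaving out one library ended several of these calls, and the count fell from 6 to 2 without LP MHCIIhi library III and to 3 without LP MHCIIhi library V or LP MHCIIlow library II. Tlr1 no longer passed without LP MHCIIhi library III (-1.15) or V (-1.17) or LP MHCIIlow library II (-0.78), Tlr2 without LP MHCIIhi library III (0.80) or IV (0.75) or LP MHCIIlow library II (0.49) and Tlr6 without LP MHCIIhi library III (-1.12) or V (-1.11) or LP MHCIIlow library IV (-0.84). Cd14 no longer passed without LP MHCIIhi library III (-1.05), IV (-1.01) or V (-1.01) or LP MHCIIlow library II (-0.97) or IV (-1.01), where the differences stayed close to the full value and the adjusted p was 0.0639 to 0.0715. With the pool number as a fixed block, which pairs the MHCIIhi and MHCIIlow libraries of pools III and IV, Tlr1 (-0.83, adjusted p = 0.127) and Tlr2 (0.46, adjusted p = 0.216) did not pass, and LP MHCIIlow library II, which has no partner, drops out of that comparison. With summed reads as library size, Tlr1 (-0.97, adjusted p = 0.0692) and Tlr6 (-1.03, adjusted p = 0.053) did not pass. With the spread estimated from the libraries compared alone, the adjusted p was 0.14 for Tlr1, 0.184 for Tlr2 and 0.184 for Tlr6.

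In tumour 0 of 10 members passed between MHCIIlow and MHCIIhi macrophages, beside 1.13% of all genes tested. With limma, 4 of the 10 had an unadjusted p under 0.05: Tlr1 (-0.70), Tlr5 (-0.66), Tlr7 (-0.77) and Tlr8 (-0.73), all lower in MHCIIlow, beside 11.2% of all genes in either direction. Tlr1, Tlr6 and Tlr7 did not overlap (17.6% of all genes tested). Tlr7 had a log2 difference of -0.77 (SE 0.22, adjusted p = 0.11) and passed under log2(RPKM + 1), quantile normalization, weights per library and voom, each of which made this 1 call. Whether the step from MHCIIhi to MHCIIlow differed between tissues was tested as an interaction. It passed for 0 of 10 members, beside 1.46%, and 2 had an unadjusted p under 0.05, beside 12.8%: Tlr2 (-1.12 (SE 0.32, adjusted p = 0.0977)) and Tlr5 (1.04 (SE 0.41, adjusted p = 0.265)). Tlr2 passed here with quantile normalization (-1.27), weights per library (-0.98) and voom (-1.16) and without LP MHCIIlow library III (-1.37), and Tlr5 without tumour MHCIIlow library VII (1.46).

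Against monocytes, macrophages held less RNA of most of these genes in both tissues. For the mean of both macrophage populations, 8 members passed in LP, 1 higher and 7 lower than in monocytes, beside 29.5% of all genes tested (12.5% higher, 17% lower). In tumour 8 passed, 2 higher and 6 lower, beside 38.3% (16.8% higher, 21.4% lower). The macrophage libraries did not overlap with the monocyte libraries for 5 members in LP (29%) and 7 in tumour (40%). Tlr4 was 3.08-fold lower in LP macrophages (-1.62 (SE 0.19, adjusted p = 2.06e-06)) and 4.72-fold lower in tumour (-2.24 (SE 0.19, adjusted p = 1.09e-08)). Cd14 was 2.2-fold lower in LP (-1.14 (SE 0.23, adjusted p = 0.000807)) and 5.19-fold lower in tumour (-2.38 (SE 0.23, adjusted p = 6.8e-08)). Tlr5 was lower by 4.51-fold in tumour (-2.17 (SE 0.25, adjusted p = 7.81e-07)), and its LP difference was -1.16 (SE 0.25, adjusted p = 0.00151). These 3 genes passed without any one library in both tissues.

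Tlr2 was lower in macrophages of LP (-1.15 (SE 0.20, adjusted p = 0.000176)) and of tumour (-1.32 (SE 0.20, adjusted p = 2.12e-05)), and so was Tlr13 (-1.24 ± 0.14 in LP and -0.63 ± 0.14 in tumour, SE). The tumour difference of Tlr13 did not pass with quantile normalization (-0.30) or with summed reads as library size (-0.28). Tlr6 was lower as well (-1.33 ± 0.28 in LP and -0.87 ± 0.28 in tumour), and in tumour this was lost without tumour monocyte library I (-0.67) or II (-0.84) and with summed reads (-0.53). Tlr1 was the exception, higher in macrophages: 5.07-fold in tumour (2.34 (SE 0.27, adjusted p = 8.94e-07)) without overlap, and in LP by a log2 difference of 0.90 (SE 0.27, adjusted p = 0.0173), which did not pass without LP monocyte library III (0.60). Tlr7 was higher in tumour macrophages (0.54 (SE 0.19, adjusted p = 0.0324)), and its LP difference was 0.29 (SE 0.19, adjusted p = 0.286); the test of the difference between tissues did not pass (0.25 (SE 0.27, adjusted p = 0.679)). The tumour call of Tlr7 was lost without tumour MHCIIhi library VII (0.48), tumour MHCIIlow library V (0.54) or tumour monocyte library I (0.44) or II (0.54), with libraries centred on their medians (0.38) and with the pool as a fixed block (0.53, adjusted p = 0.0832). For the mean of both LP macrophage populations Tlr8 was lower (-0.78 (SE 0.21, adjusted p = 0.00873)), a call lost without LP monocyte library IV (-0.65). LP monocytes held 15.86 to 23.96 RPKM of Tlr8. LP MHCIIhi macrophages, at 16.48 to 17.67, lay within that range, and LP MHCIIlow macrophages, at 6.89 to 9.96, lay below it. Neither macrophage population was tested against monocytes alone. The tumour difference of Tlr8 was 0.15 (SE 0.21, adjusted p = 0.628). Its difference between tissues was 0.92 (SE 0.30, adjusted p = 0.0601), which passed in 5 of 12 other settings. It also passed without LP MHCIIlow library IV, LP monocyte library V, tumour MHCIIhi library I or tumour MHCIIlow library VII. Tlr9 did not pass in either tissue, at 0.04 ± 0.89 in LP and 0.26 ± 0.89 in tumour. The LP value averages both macrophage populations, which went opposite ways without overlap with monocytes. Against 11.3 to 12.6 RPKM of Tlr9 in LP monocytes, LP MHCIIhi macrophages held 19.7 to 25.7 and LP MHCIIlow macrophages 4.71 to 8.57.

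Neutrophils held more RNA than monocytes of the same 6 members in both tissues: Tlr1, Tlr2, Tlr4, Tlr6, Tlr13 and Cd14. In LP 9 members passed against monocytes, 6 higher and 3 lower, beside 54.5% of all genes tested (24.1% higher, 30.4% lower), and 10 did not overlap (60.8%). In tumour 9 passed, 6 higher and 3 lower, beside 58.1% (23.3% higher, 34.9% lower), and 9 did not overlap (62.2%). Tlr6 was 13-fold higher in LP neutrophils (3.70 (SE 0.32, adjusted p = 9.38e-09)) and 7.9-fold higher in those of tumour (2.98 (SE 0.32, adjusted p = 1.42e-07)). Tlr13 was 3.38-fold higher in LP (1.76 (SE 0.16, adjusted p = 2.45e-08)) and 4.83-fold in tumour (2.27 (SE 0.16, adjusted p = 5.1e-10)). Tlr1 was 6.45-fold higher in LP (2.69 (SE 0.32, adjusted p = 6.23e-07)) and 3.39-fold in tumour (1.76 (SE 0.32, adjusted p = 8.39e-05)). Cd14 was 2.58-fold higher in LP and 3.75-fold in tumour, and Tlr4 2.56-fold and 2.74-fold. Tlr2 was higher by 1.97-fold and 2.35-fold.

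Among the members lower in neutrophils than in monocytes, Tlr7 was 3.3-fold lower in LP (-1.72 (SE 0.22, adjusted p = 2.22e-06)) and 4.78-fold lower in tumour (-2.26 (SE 0.22, adjusted p = 5.04e-08)). Tlr5 was 2.27-fold lower in LP (-1.18 (SE 0.29, adjusted p = 0.00193)) and 3.76-fold in tumour (-1.91 (SE 0.29, adjusted p = 1.28e-05)). Tlr8 was lower in LP (-0.76 (SE 0.24, adjusted p = 0.0128)), a call lost without LP monocyte library IV (-0.64) or LP neutrophil library III (-0.61) and with libraries centred on their medians (-0.47). In tumour the Tlr8 difference was -0.24 (SE 0.24, adjusted p = 0.418), and with summed reads it was -1.38 and passed (adjusted p = 6.64e-05). In tumour the summed Tlr9 reads of monocytes, per library size, were 74.1 times those of neutrophils (exact 95% interval 28.8 to 272). In LP the log2 difference of Tlr9 was -2.39 (SE 1.03, adjusted p = 0.0564), without overlap, and it passed in 7 of 12 other settings. The scaling of libraries mattered most here, since the median of all genes was -0.24 in LP and -0.36 in tumour, and -1.07 and -1.49 when library size was taken as summed reads. Under quantile normalization Tlr2 changed sign, to -0.17 in LP and -0.40 in tumour, and with summed reads it was 0.15 and 0.10. With summed reads the tumour differences of Tlr1 (0.63) and Tlr4 (0.32) did not pass, and with quantile normalization those of Tlr4 (0.58) and Cd14 (0.46) did not. Tlr6 and Tlr13 remained higher, and Tlr5 and Tlr7 lower, in neutrophils of both tissues in all 12 other settings.

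**Figure D4:**
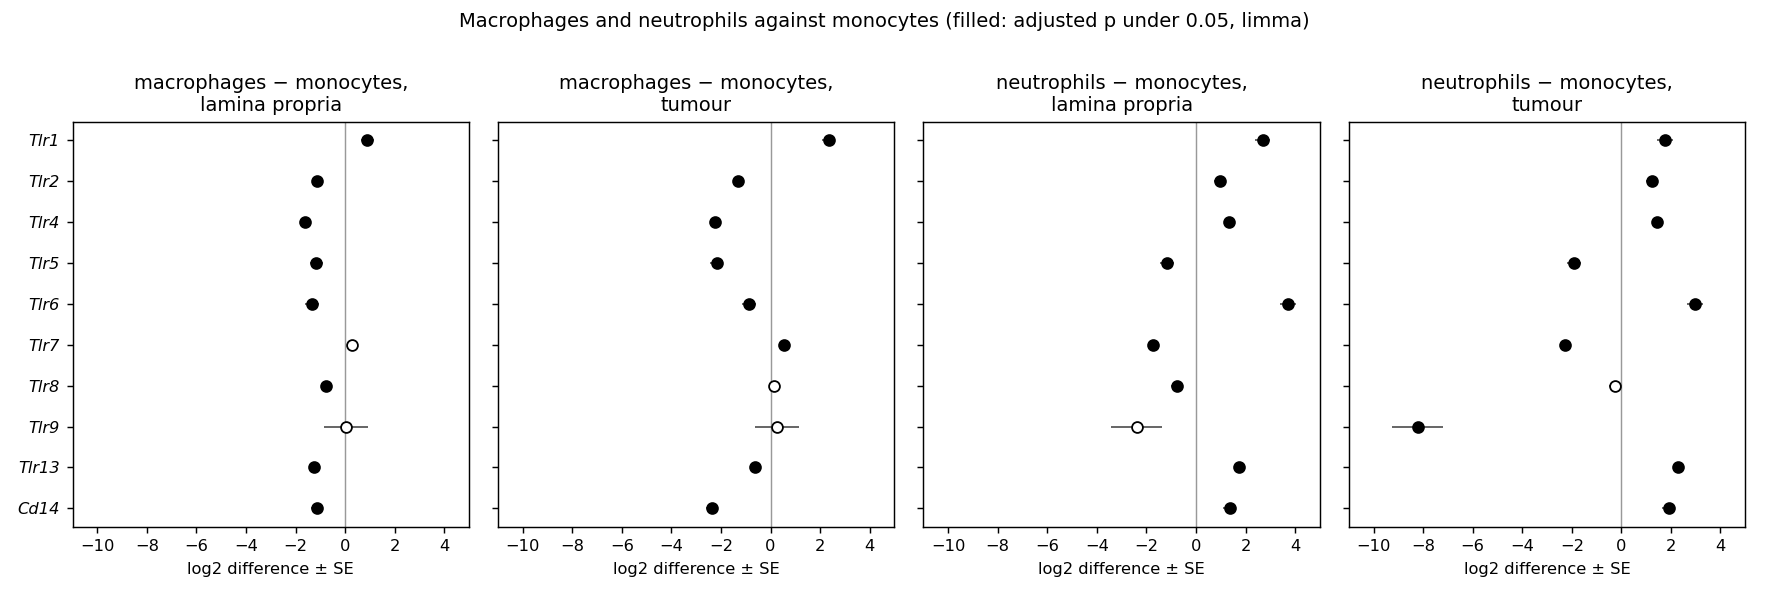
Difference from monocytes of the same tissue (log2 difference ± SE, horizontal axis) for each of the 10 genes, for the mean of both macrophage populations and for neutrophils, in LP and in tumour, filled where the adjusted p was under 0.05. In macrophages Tlr1 lies above monocytes in both tissues while Tlr4, Tlr5 and Cd14 lie below; in neutrophils Tlr6 has the largest positive difference, 3.70 in LP and 2.98 in tumour.

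Whether the tissue difference itself differed between populations was tested as an interaction. Macrophages against monocytes gave 2 of 10 members, 1 higher and 1 lower, beside 9.19% of all genes tested (3.55% higher, 5.64% lower). The count was 4 without LP MHCIIlow library IV or tumour MHCIIhi library I, 1 without LP monocyte library III or IV or tumour monocyte library II, and 0 without tumour monocyte library I. For Cd14 the tumour difference of macrophages was lower than that of monocytes by a log2 difference of -1.24 (SE 0.32, adjusted p = 0.0186). This passed in all 12 other settings and was lost without LP monocyte library III (-1.11) or tumour monocyte library I (-1.13), with adjusted p = 0.0599 to 0.0652. For Tlr1 the tumour difference of macrophages was higher than that of monocytes by 1.44 (SE 0.39, adjusted p = 0.0215). It was lost without LP monocyte library IV (1.23) or V (1.36) or tumour monocyte library I (1.43) or II (1.28), with adjusted p = 0.0519 to 0.0738, and with the pool as a fixed block (1.04, adjusted p = 0.0866). Neutrophils against monocytes gave 1 member, Tlr9, lower, beside 9.11% (3.61% higher, 5.5% lower), at -5.84 (SE 1.46, adjusted p = 0.0161). That value rests on the added 0.25 reads: under log2(RPKM + 1) it was 0.06 with adjusted p = 0.962. The interaction of Tlr2 did not pass for macrophages against monocytes (-0.17 (SE 0.28, adjusted p = 0.812)) or for neutrophils against monocytes (0.26 (SE 0.32, adjusted p = 0.678)).

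The other genes of the pathway were taken from 6 lists of accessory proteins, adaptors, kinases and ubiquitin ligases, transcription factors, negative regulators and further TLRs, 47 genes of which 45 were tested. Between tumour and LP, 2 higher and 14 lower passed in MHCIIhi macrophages, 6 higher and 11 lower in MHCIIlow macrophages, 2 higher and 1 lower in monocytes and 8 higher and 10 lower in neutrophils. Over all genes tested, 8.01% passed higher and 11.5% lower in MHCIIhi macrophages, 11.5% and 11.8% in MHCIIlow macrophages, 4.86% and 4.43% in monocytes and 13.1% and 19% in neutrophils. The pathway lists' median log2 difference was -0.29, -0.16, -0.03 and -0.11, beside 0.00, 0.06, 0.00 and -0.12 over all genes tested. Other settings and left-out libraries were examined for the 10 members only, so the pathway calls here and below were not tested against them. With summed reads as library size, the median over all genes in neutrophils was -0.59 in place of -0.12.

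Among the 9 accessory and trafficking genes, 1 higher and 1 lower passed in MHCIIhi macrophages, 3 higher and 2 lower in MHCIIlow macrophages, 0 higher and 0 lower in monocytes and 1 higher and 4 lower in neutrophils, beside 19.5%, 23.3%, 9.29% and 32.2% of all genes in either direction. Cd36, a scavenger receptor that assists Tlr2 with Tlr6, fell in macrophages of tumour, with differences of -2.16 (SE 0.73, adjusted p = 0.0423) in MHCIIhi and -3.79 (SE 0.73, adjusted p = 0.000657) in MHCIIlow. Slc15a4, an endolysosomal transporter needed for endosomal TLR signalling, rose in both, by 0.94 (SE 0.27, adjusted p = 0.0163) and 1.28 (SE 0.27, adjusted p = 0.00146). Ly86, the partner of the TLR-like protein Cd180, rose in MHCIIlow macrophages (0.90 (SE 0.31, adjusted p = 0.04)). In neutrophils Ly96, the partner of Tlr4, fell (difference -0.90 (SE 0.29, adjusted p = 0.0223)), as did Hsp90b1 and Cnpy3, which help TLRs to fold (-1.13 ± 0.17 and -0.62 ± 0.18, SE). Unc93b1, which carries endosomal TLRs to their compartment, ran from 542 to 598 RPKM in LP MHCIIhi and 675 to 697 in tumour MHCIIhi macrophages, the 2 highest groups, down to 126 to 158 in LP neutrophils.

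Of the 5 adaptors tested, 0 higher and 2 lower passed in MHCIIhi macrophages, 0 higher and 2 lower in MHCIIlow macrophages, 0 higher and 1 lower in monocytes and 1 higher and 3 lower in neutrophils, beside the same shares of all genes. Tirap, which brings Myd88 to Tlr2 and Tlr4 at the membrane, was lower in tumour in all 4 populations by the test, at -1.10 ± 0.19, -0.86 ± 0.19, -0.88 ± 0.19 and -0.64 ± 0.19 (SE) in the same order. Its level ran from 60.0 to 69.1 RPKM in LP neutrophils and 40.0 to 42.8 in those of tumour to 2.67 to 4.12 in tumour MHCIIhi macrophages. Myd88 itself rose in tumour neutrophils (0.72 (SE 0.16, adjusted p = 0.0016)) and fell in tumour MHCIIlow macrophages (-0.50 (SE 0.16, adjusted p = 0.0266)). Pik3ap1, which links TLRs to PI3 kinase, fell in MHCIIhi macrophages (-0.89 ± 0.18) and neutrophils (-0.73 ± 0.18, SE). Of 14 kinases and ubiquitin ligases, 1 higher and 2 lower, 2 higher and 1 lower, 1 higher and 0 lower and 1 higher and 2 lower passed in the 4 populations, beside 19.5%, 23.3%, 9.29% and 32.2% of all genes. Irak2, a kinase that sustains TLR signals, rose in MHCIIhi macrophages (0.66 ± 0.18), MHCIIlow macrophages (0.86 ± 0.18) and monocytes (0.85 ± 0.18, SE). Ikbkg, the regulatory subunit of the kinase complex that frees NF-kB, fell in MHCIIhi (-0.76 ± 0.23) and MHCIIlow macrophages (-0.90 ± 0.23, SE). Ikbke, a related kinase, fell in MHCIIhi macrophages (-0.58 ± 0.20) and neutrophils (-1.41 ± 0.20, SE). In neutrophils Ikbkb, a catalytic subunit of that complex, fell (-0.60 ± 0.18) and Tbk1, a kinase upstream of interferon factors, rose (0.43 ± 0.16, SE).

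Of the 7 transcription factors, 0 higher and 5 lower passed in MHCIIhi macrophages, 0 higher and 3 lower in MHCIIlow macrophages, 0 higher and 0 lower in monocytes and 2 higher and 0 lower in neutrophils, beside 11.5%, 11.8% and 4.43% of all genes lower in the first 3 and 13.1% higher in neutrophils. Nfkb1, an NF-kB subunit, differed by -1.33 (SE 0.18, adjusted p = 2.52e-05) in MHCIIhi macrophages, -1.61 (SE 0.18, adjusted p = 2.01e-06) in MHCIIlow macrophages and 0.84 (SE 0.18, adjusted p = 0.00153) in neutrophils. Irf7, the interferon factor downstream of Tlr7 and Tlr9, fell, with differences of -2.24 (SE 0.28, adjusted p = 7.13e-06) and -1.64 (SE 0.28, adjusted p = 0.000178) in macrophages. Nfkb2, a further NF-kB subunit, fell in both as well (-1.18 ± 0.17 and -1.02 ± 0.17, SE). Rel, another NF-kB subunit, rose in neutrophils by 1.58 (SE 0.15, adjusted p = 3.02e-07). Of the 8 negative regulators, 0 higher and 4 lower, 1 higher and 3 lower, 1 higher and 0 lower and 3 higher and 1 lower passed in the 4 populations, beside 19.5%, 23.3%, 9.29% and 32.2% of all genes in either direction. Socs1 fell in MHCIIhi macrophages (-2.04 ± 0.36), MHCIIlow macrophages (-2.04 ± 0.36) and neutrophils (-2.42 ± 0.36, SE). Tollip, which binds TLRs and their kinases, fell in both macrophage populations (-1.11 ± 0.17 and -1.38 ± 0.17, SE). Irak3, a kinase-like inhibitor of TLR signals, fell in MHCIIhi macrophages (-0.86 ± 0.21) and rose in monocytes (0.81 ± 0.21, SE). Tnfaip3, which encodes A20 and is itself a target of NF-kB, rose in neutrophils (1.76 (SE 0.26, adjusted p = 3.47e-05)), as did the NF-kB inhibitor Nfkbia (1.07 (SE 0.31, adjusted p = 0.012)).

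**Figure D5:**
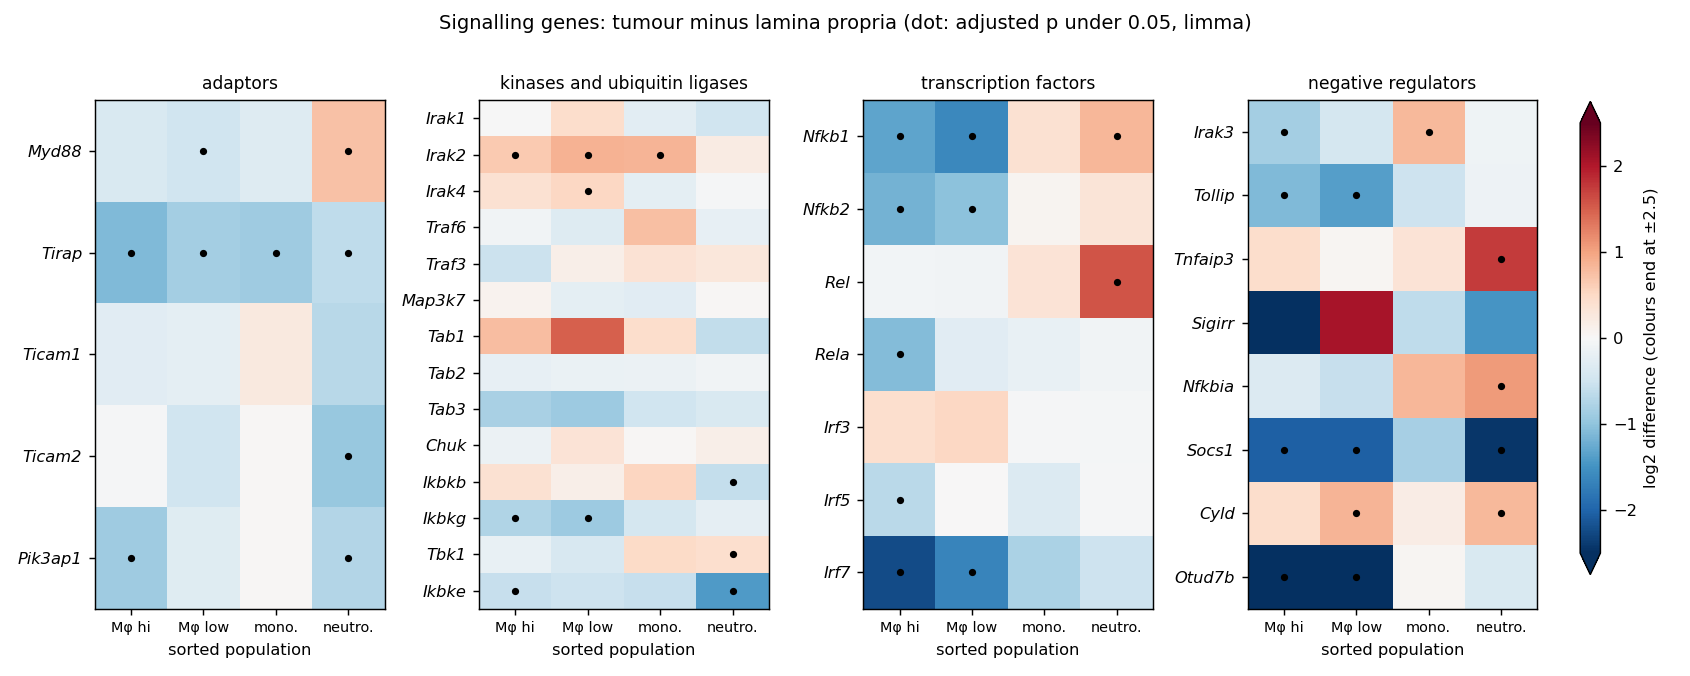
Difference of tumour from LP (log2 difference, colour, with colours ending at -2.5 and 2.5) for the adaptor, kinase, transcription factor and negative regulator genes (rows) in the 4 sorted populations (columns), with a dot where the adjusted p was under 0.05. Tirap carries a dot on the LP side in 4 of 4 columns, and Nfkb1 is on the LP side in both macrophage columns and on the tumour side in neutrophils.

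Of the 3 further TLRs, Tlr12, a profilin receptor, was found mainly in macrophages. It measured 23.5 to 27.3 RPKM in LP MHCIIhi, 1.02 to 5.76 in LP MHCIIlow, 73 to 96.3 in tumour MHCIIhi and 25.4 to 43.9 in tumour MHCIIlow macrophages, and at most 16 reads in any monocyte or neutrophil library. The tumour libraries of each macrophage population lay above those of LP, with differences of 1.70 (SE 1.61, adjusted p = 0.534) and 3.77 (SE 1.61, adjusted p = 0.1) that did not pass under the SE shared with the groups near 0. Tlr3, the receptor for double-stranded RNA, was at 4.97 RPKM or less in all libraries. Tlr11 was not tested, since no group reached a mean of 1 RPKM.

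Over the 24 libraries, levels of Tlr6 and Tlr13 were the most alike pair of members (Pearson r = 0.943), followed by Tlr4 and Cd14 (0.921). Tlr7 ran opposite to Tlr13 (-0.876), Tlr6 (-0.864), Tlr4 (-0.857) and Cd14 (-0.844), and Tlr2 ran opposite to Tlr9 (-0.774). These values are across libraries of 8 groups that share their population and describe mainly the differences between groups. Each r of Tlr9, here and below, includes the tumour neutrophil libraries with 0, 4 and 0 reads. Their log2 levels depend on the 0.25 reads added before taking logs, and the effect on r was not tested. Of 5211 genes compared over the same 24 libraries, the levels most like those of Tlr2 were Rffl (0.971) and Svil (0.963), and those most like Tlr4 were Sema4a (0.982) and Ugt1a7c (0.977). For Cd14 they were Rab11fip1 (0.989) and Zswim4 (0.983), for Tlr6 Fam114a1 (0.979) and Wbp1l (0.969), and for Tlr7 Tcof1 (0.959) and Rassf4 (0.955). A further 4 members had less similar genes: Tlr5 with Lats2 (0.907) and Ramp3 (0.904), Tlr9 with Tent5a (0.907) and Tmem115 (0.905), Tlr1 with Rgs2 (0.888) and Amdhd2 (0.876), and Tlr8 with Gm2a (0.719) and Atp6v0a2 (0.715).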

How the data were processed

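RNA of 4 myeloid populations sorted from colon LP and colon tumours was sequenced as SMARTSeq v2 libraries (24 libraries, 8 groups of 3). According to the methods and processing notes, the authors used STAR 2.3 to map paired reads (GRCm38/mm10 genome) and featureCounts 1.5 to count them per GENCODE gene. They left out genes that averaged under 10 reads in every cell population. The deposited values are log2 RPKM with 0.25 reads added, per scaled library sizes of 0.466 to 1.51 times the reads. Whole reads were recovered for 100.0% of 415224 values within 0.001 reads. Gene symbols came from GENCODE M21 (17190 of 17301 genes). Depth per library (12838061 to 41718078 reads) limits precision, and intervals cover counting error only.

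Group means were fitted with limma 3.58.1 in R 4.3.3 (trend, 24 libraries, no block) over 12878 genes with a mean of at least 1 RPKM in at least 1 group, with Benjamini-Hochberg adjustment over these genes within each of 13 comparisons. Comparisons of tissues share no library with each other, whereas those against monocytes share the monocyte libraries. The fit was also tested on simulated data for changes of known size, and the outcome is not reported here. The labels call the pool number a donor, so libraries of one number and tissue are paired: over 29 such pairs the deviations from group means correlated at -0.0661 to 0.255 (median 0.0169). The pool was tried as a random and as a fixed block. Other settings were other offsets, filters, scalings, weights, voom on recovered reads, the compared libraries alone and leaving out each library. The members, gene lists and tests were chosen with earlier results of these data known. The rule for named genes took all members, and from each pathway list up to 3 genes that passed, did not overlap and reached 10 RPKM; Unc93b1, Tlr12, Tlr3, Tlr11 and some values beyond this rule were added after their values were seen. The genes most like Tlr13 are not reported here. Python 3.11.15 with numpy 2.4.6, pandas 2.3.3, scipy 1.17.1 and matplotlib 3.10.9 served for the rest.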

Additional observations from a re-analysis of the deposited data

Results flagged for a closer look

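In the main fit, the tissue difference of 3 members differed between populations by a test of that difference (limma, interaction, adjusted over 12878 genes). For Cd14 the tumour minus LP difference of macrophages was lower than that of monocytes by -1.24 on the log2 scale (SE 0.32, adjusted p = 0.0186), with -0.83 in MHCIIhi and -0.16 in MHCIIlow macrophages against 0.75 in monocytes. For Tlr1 it was higher in macrophages by 1.44 (SE 0.39, adjusted p = 0.0215), with 0.47 and 0.99 in the macrophages against -0.72 in monocytes. That call was lost with the pool as a fixed block. For Tlr9 it was lower in neutrophils than in monocytes by -5.84 (SE 1.46, adjusted p = 0.0161), a value that depends on the reads added to libraries at 0.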

How the results depend on the processing

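Counted over 109 results on single members, which are each difference between groups and the interactions given in the report, 59 passed. Of these, 645 of 692 values under other settings passed with the same sign, 43 did not pass and 4 changed sign. With 1 library left out, 368 of 432 passed and none changed sign. Of results that had not passed, 52 of 576 values under other settings passed and 14 changed sign without passing, and 10 of 366 passed with 1 library left out, where 18 changed sign. The number of members that passed moved by more than 1.5 times as follows. MHCIIlow against MHCIIhi macrophages of tumour (0) gave 1 with log2(RPKM + 1), quantile normalization, weights per library or voom, and its interaction with tissue (0) gave 1 with quantile normalization, weights or voom. The interaction of macrophages against monocytes (2) gave 5 with log2(RPKM + 1), weights or voom, 4 with a filter of 5 RPKM, quantile normalization or summed reads, and 1 with the pool as a fixed replicate block. That of neutrophils against monocytes (1) gave 0 with log2(RPKM + 1), log2(RPKM + 0.1), quantile normalization, voom or the compared libraries alone. Tumour against LP gave 2 (centred libraries) or 0 (compared libraries alone) in place of 5 in MHCIIlow macrophages, 3 (log2(RPKM + 1), log2(RPKM + 0.1), weights, voom) or 2 (compared libraries alone) in place of 1 in monocytes, and 3 (quantile normalization) in place of 6 in neutrophils. Leaving out 1 library gave 2 to 6 for MHCIIlow against MHCIIhi in LP, 2 to 4 for MHCIIhi and 0 to 4 for MHCIIlow macrophages between tissues, and 0 to 1 and 0 to 4 for the interactions within macrophages and against monocytes.

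The random replicate block changed no count. The fixed block of the pool, which cannot be estimated between tissues, ended 4 calls named in the report and changed no other: Tlr1 (-0.83) and Tlr2 (0.46) between LP macrophages, Tlr7 between tumour macrophages and monocytes (0.53), and the Tlr1 interaction (1.04).

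Among the other settings, sign changes came mostly with scaling. With summed reads, tumour minus LP was -0.012 for Tlr7 in monocytes and, in neutrophils, -0.46 for Tlr4, -0.32 for Tlr8 and -0.091 for Tlr13. With quantile normalization it was -0.16 for Tlr4 and 0.00 for Cd14 in neutrophils, and neutrophils minus monocytes was -0.17 in LP and -0.40 in tumour for Tlr2. The Tlr2 interaction was -0.23 (quantile) and -0.051 (summed reads) for neutrophils and 0.058 and 0.057 for macrophages against monocytes. With centred libraries Tlr8 was -0.023 for macrophages and 0.21 for neutrophils against monocytes of tumour. Tlr4 between LP macrophages was 0.070 (quantile), 0.22 (summed reads) and 0.029 (weights), and the Tlr9 interaction was 0.065 with log2(RPKM + 1). Where 1 library was left out, values that changed sign had not passed and ranged from -0.38 to 0.14 for Cd14 in MHCIIlow macrophages, -0.26 to 0.037 for Tlr4 and -0.43 to 0.00079 for Tlr6 in monocytes, and -0.035 to 0.033 for Tlr4 and -0.0067 to 0.28 for Tlr8 in neutrophils between tissues. They ranged from -0.16 to 0.19 in LP and -0.20 to 0.32 in tumour for Tlr4 between macrophages, and against monocytes from -0.047 to 0.17 in LP and -0.19 to 0.70 in tumour for Tlr9 and -0.030 to 0.28 for Tlr8 in tumour, and the Tlr2 interaction of macrophages against monocytes from -0.34 to 0.0017. Unless said beside a value, the cause was not tested. The estimate of Tlr9 in tumour neutrophils rested on 0, 4 and 0 reads.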
